A study of Mus musculus with 13 samples.

Results

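Guanylate-binding proteins (Gbp) and immunity-related GTPases (Irg) are families of enzymes that bind and hydrolyse GTP and that mouse cells make in response to interferons. The 10 genes described here are Gbp2, Gbp3, Gbp6 and Gbp7 of the Gbp group and Irgm1, Irgm2, Igtp, Iigp1, Ifi47 and Tgtp1 of the Irg group. They were taken by symbol from the deposited liver gene table, which listed 8 of them among its 11779 genes, with Gbp6 and Tgtp1 not listed. The 10 genes were chosen by measured values, with the results of the authors' liver comparison known. That comparison was not used, so neither the direction nor the size of a change after knockdown is given here.

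The study examined LL35, a long non-coding RNA of mouse liver cells, by lowering its level with antisense oligonucleotides (ASOs), short modified nucleic acids that direct the destruction of a matching RNA. Liver RNA came from 3 Balb/c mice given a mix of 5 ASOs to LL35 and 3 Balb/c mice given a single control ASO to firefly luciferase (Luc), collected at day 5 after injection. All of these ASOs carried GalNAc, a sugar that is taken up by a receptor on hepatocytes, so the controls also received an oligonucleotide conjugate. The labels and the study's methods give 5 ASOs, but the study's list of oligonucleotides for mice names fewer. The LL35 dose was 150 mg/kg, given per ASO in the sample labels and for the whole mix in the study's methods. The 7 libraries of the hepatocyte line AML12 were not analysed here. Because whole liver was sequenced, fewer cells of a type and less RNA per cell cannot be told apart.

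The values available were the authors' mean normalized counts, 1 per gene, averaged over both liver groups. They hold no value for a single mouse or group, so no spread, error, interval or test could be given, and the number of reads behind each value is unknown. The levels below are therefore a description of the liver of both groups together. The lowest mean normalized count listed was 15.6. A gene that is not listed may thus have been low or left out rather than absent. Medians of all listed genes do not include such genes.

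Both families act against microbes that live inside vacuoles within the cell. Gbp proteins are recruited to such vacuoles and to bacteria, where they help to break the membrane and to alert inflammatory caspases. Irg proteins fall into effectors, such as Iigp1 (Irga6) and Tgtp1 (Irgb6), which load onto the foreign membrane, and regulators, which are Irgm1, Irgm2 and Igtp (Irgm3). The regulators sit on the cell's own membranes and hold the effectors inactive there. Interferon gamma acts through its receptor and the kinases Jak1 and Jak2, and many of its target genes carry gamma-activated sites (GAS). Interferons alpha and beta act through a complex with Stat2 and Irf9 that binds interferon-stimulated response elements (ISRE), and Irf1 and Irf8 bind closely related letters.

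The promoter stretches that hold these elements are shown first. Their letters were not used in the choice of genes. The families are known for induction by interferons, however, so such cores were likely in them from the outset. The share of members with a core is therefore not an independent result. Promoters were taken from RefSeq (build GRCm38.p6), as 250 bases before to 50 bases after each start, and 7 of the 8 listed members matched by symbol, with no entry for Iigp1. The search was for the ISRE core GAAANNGAAA and the GAS core TTCNNNGAA on both strands, where N is any base. The ISRE core was present in 6 of the 7 members, all but Ifi47, against 3.99% of the 27025 genes in the promoter table and 3.73% of the 9335 listed liver genes in it. The stretch around the cores is printed for each of these 6 genes, 5′ to 3′ on the gene's strand, with the bases of ISRE and GAS cores in capitals. An ISRE core that lies on the opposite strand appears as its reverse complement. Gbp3 has 2 starts in the table, and its cores lie before the first.
Gbp7, chr3:142530215-142530307, plus strand: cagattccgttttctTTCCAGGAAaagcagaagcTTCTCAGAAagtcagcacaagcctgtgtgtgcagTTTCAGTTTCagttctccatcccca
Gbp3, chr3:142559984-142560029, plus strand: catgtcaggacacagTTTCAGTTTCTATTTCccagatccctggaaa
Gbp2, chr3:142620589-142620628, plus strand: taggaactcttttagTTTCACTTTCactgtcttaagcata
Irgm1, chr11:48871421-48871465, minus strand: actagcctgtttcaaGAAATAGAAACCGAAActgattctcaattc
Igtp, chr11:58199496-58199546, plus strand: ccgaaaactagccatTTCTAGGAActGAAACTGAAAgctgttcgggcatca
Irgm2, chr11:58214887-58214937, plus strand: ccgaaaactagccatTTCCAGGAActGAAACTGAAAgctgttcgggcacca

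In all 3 Gbp promoters the ISRE core lay on the strand opposite to the gene, and in all 3 Irg promoters it lay on the gene's own strand. Counting back from the start, it began at base -53 in Gbp7, -59 in Gbp2, -34 in Igtp and -64 in Irgm2. Gbp3 and Irgm1 each held 2 ISRE cores that overlapped, beginning at -45 and -39 in Gbp3 and at -30 and -24 in Irgm1. Every core found in the 7 members thus lay before the start, and those of the ISRE type lay within the last 64 bases of it.

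The GAS core was found in 3 of the 7 members, Gbp7, Igtp and Irgm2, against 9.55% of the 27025 genes. Gbp7 held 2, beginning at -106 and -87. Igtp and Irgm2 each held 1, just before the ISRE core, from -45 to -37 in Igtp and from -75 to -67 in Irgm2. The printed stretches of Igtp and Irgm2 were the same at 49 of 51 bases (96.1%). Counting from the first base of the stretch and with the base of Igtp first, the differences were T19C, which falls inside the spacer of the GAS core, and T49C, which falls outside both cores. The pair share the cores and their spacing, but the stretch began at -60 in Igtp and at -90 in Irgm2.

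Ifi47 had neither core in this window, which says only that these letters are not there. With 1 mismatch allowed, all 7 members held an ISRE-like stretch, but so did 38.9% of all genes in the table. Among the other listed Gbp and Irg genes looked up, 5 had a promoter entry, and 3 of them (Gbp2b, Gbp5 and 9930111J21Rik1) held the ISRE core. It began at -137 in Gbp2b and at -165 in Gbp5, farther from the start than in the members. In 9930111J21Rik1 it lay after the start, from base 27 to 36, so only 2 of the 5 held it before the start. A match is a description of the letters and was not tested for binding or activity in these livers.

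**Figure D1:**
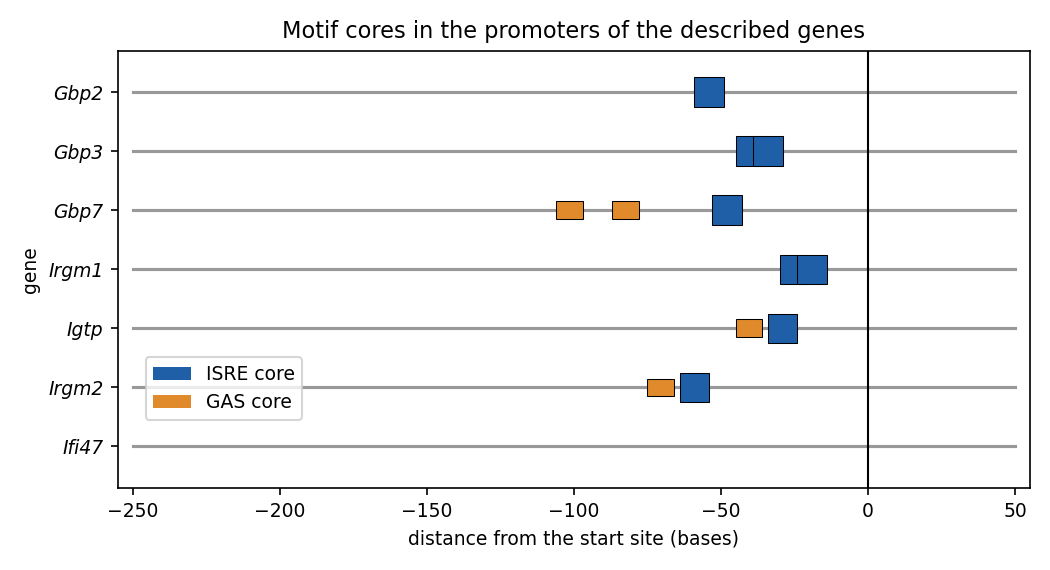
Positions of ISRE cores (blue) and GAS cores (orange) in the promoters of 7 members, in bases from the start site (the x axis, with the gene on the left and 0 the start). The ISRE cores of 6 members all fall within 64 bases before the start, the GAS cores of Gbp7, Igtp and Irgm2 lie farther from the start than the ISRE core of the same gene, and Ifi47 has neither.

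Iigp1, an effector Irg that coats vacuole membranes, had by far the highest level of the 8 genes. Its mean normalized count was 3862, which placed it higher than 96.9% of the listed liver genes. Its value alone made up 72.4% of the summed level of the 8 members, 5338, and was 7.94 times that of the next member.

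The 3 regulators of the Irg group followed. Irgm1, which is known for its part in autophagy and in protection against mycobacteria, had a mean normalized count of 486.6. Irgm2, a regulator found on the Golgi apparatus, had 289.0 and Igtp (Irgm3), found on the endoplasmic reticulum and on lipid droplets, had 236.7. These 3 genes lay above the median level of all listed genes, 234.7, though Igtp lay only just above it.

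Gbp7 led the Gbp group with a mean normalized count of 216.7, just under that median. Ifi47 (Irgd), an Irg protein that also loads onto vacuoles, had 89.3. Gbp2, a Gbp protein that coats vacuoles and bacteria, had 84.5 and Gbp3 had 73.0. In all, 4 of the 8 members lay above the median of the liver table. Iigp1 is an exception. The other 7, which ranged from 73.0 to 486.6, lay between percentiles 22.6 (Gbp3) and 69.0 (Irgm1) of the listed genes. The 3 Gbp genes together made up 7.01% of the summed level of the members.

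Counts grow with the length of a transcript, so levels of different genes were compared per kilobase of merged exon. On this scale Iigp1 stood first with a mean normalized count of 663 per kilobase. It was followed by Igtp with 117, Irgm1 with 83.7, Irgm2 with 78.3, Gbp7 with 38.6, Ifi47 with 36.1, Gbp2 with 33.6 and Gbp3 with 22.4 per kilobase. The median was 83.7 over the 5 Irg genes and 33.6 over the 3 Gbp genes, with 51.5 over all listed genes. All but 1 of the Irg members, Ifi47, thus lay above the median per kilobase, and all 3 Gbp members lay below it. This split did not hold for the other family genes looked up, described below. There, Gbp11 (107 per kilobase) lay above the median and the remaining listed Gbp genes lay below it. The Irg genes Gm4951 (478) and F830016B08Rik (163) lay above it, while Gm5431 (6.61), 9930111J21Rik1 (3.43) and 9930111J21Rik2 (4.35) lay below it.

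The ratio of levels per kilobase between Iigp1 and Igtp, its neighbour in this order, was 5.67. Irgm1 and Irgm2 were close together, with a ratio of 1.07, as were Gbp7 and Ifi47 (1.07) and Ifi47 and Gbp2 (1.08). The spread between mice is not known, so whether any of these neighbours differ beyond it could not be told. The order among the regulators, and that of Gbp7 and Ifi47, also rested on the length used. Igtp was second with merged exons, but fell to place 4 behind Irgm1 and Irgm2 when the coding length was used and to place 3 with the longest transcript. Gbp7 lay above Ifi47 with merged exons and coding length, but below it with the longest transcript. Iigp1 was first and Gbp2 and Gbp3 were last with all 3 lengths.

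**Figure D2:**
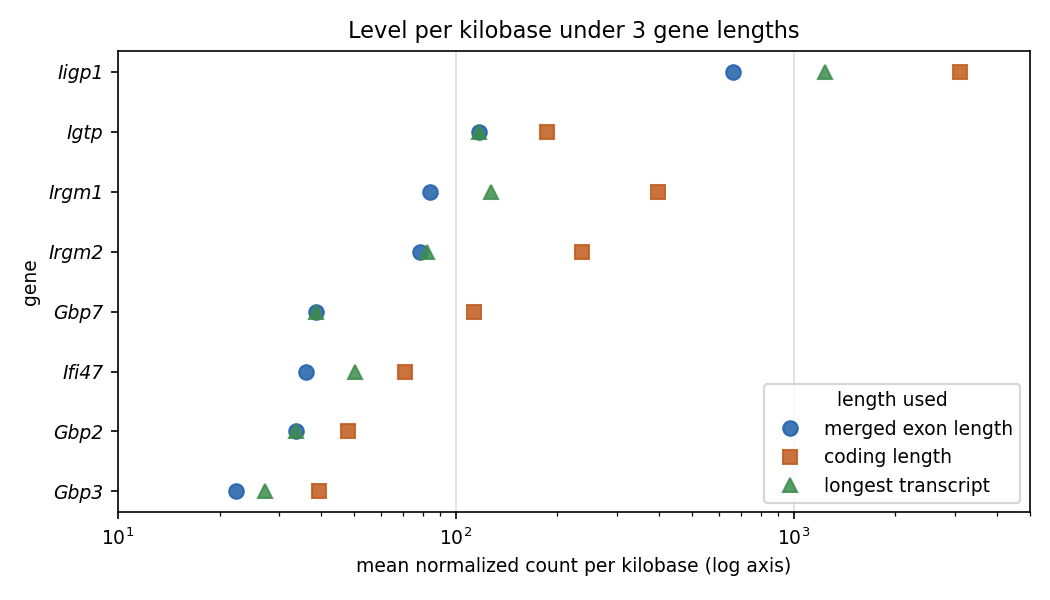
Mean normalized count per kilobase (log x axis) of the 8 listed members (y axis), with the length taken as merged exons (circles), coding sequence (squares) or the longest transcript (triangles). Iigp1 is highest with each length, from 663 per kilobase with merged exons upward, while Igtp, Irgm1 and Irgm2 change places, as do Gbp7 and Ifi47 with the longest transcript. No error bars are drawn, since the values are 1 mean per gene.

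The members belong to clusters of neighbouring genes, as GENCODE M21 places them. Gbp7, Gbp3 and Gbp2 lie in a row on chromosome 3, with the family genes Gbp5 before them and Gbp2b among them and no other protein-coding gene between. Irgm1 and Ifi47 lie on chromosome 11 in a stretch that also holds Tgtp1, Tgtp2 and other Irg genes. Igtp and Irgm2 are direct neighbours elsewhere on that chromosome, 137 protein-coding genes away from Ifi47. Iigp1 lies on chromosome 18 next to its relative F830016B08Rik and close to Gm4951.

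Of 15 other genes looked up as possible relatives of the members, 12 were listed, all of them Gbp or Irg genes. Tgtp2, Irgc1 and Gvin1 were not listed, and of these Gvin1 may lie outside the 2 families. Gm4951 (1265 mean normalized counts) and F830016B08Rik (537), the neighbours of Iigp1, had the highest levels of them, also per kilobase (478 and 163). Together with Iigp1 they made up 5664 of the 7866 mean normalized counts summed over the 20 listed genes looked up, members included, or 72.0%. Of these 20, the 7 Irg genes on chromosome 11 together had 1174. The 5 Gbp genes on chromosome 5 had 566 and the 5 on chromosome 3 had 462. Other genes in these clusters, such as Gm4841 between Gm4951 and F830016B08Rik, were not looked up. The sums therefore need not cover the whole families.

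Within the chromosome 3 cluster the members Gbp7, Gbp2 and Gbp3 had higher levels than the other 2 genes, Gbp2b with 63.0 and Gbp5 with 25.1. Gbp5, which is known for promoting inflammasome assembly, had 3.77 per kilobase, against 22.4 in the lowest member. On chromosome 5, Gbp11 had a mean normalized count of 287, above every Gbp member, while Gbp9 had 119, Gbp4 had 90.6, Gbp8 had 36.4 and Gbp10 had 32.9. No listed member lay below a mean normalized count of 50, and 6 of the 12 other family genes did. The members were chosen on the same libraries, so this difference in level carries no test.

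**Figure D3:**
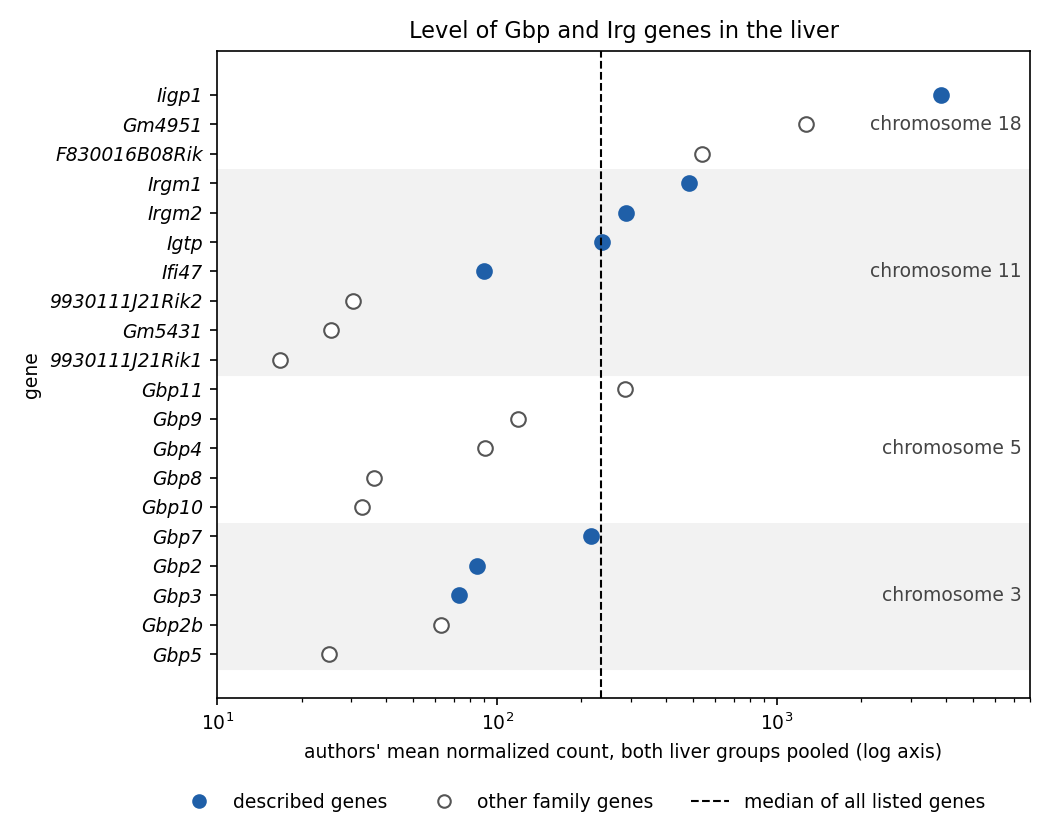
The authors' mean normalized count over both liver groups (log x axis) for the 8 members (filled) and the 12 other listed family genes (open), grouped by chromosome. Iigp1, at 3862, and its 2 neighbours on chromosome 18 lie above all other genes shown, and the dashed line marks the median of all listed genes, 234.7.

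The families arose by gene duplication, and reads that match more than 1 gene are left out of gene counts made by STAR, the tool the authors used. It was therefore examined how much of each member could be told from other genes. All stretches of 50 bases in the GENCODE M21 transcripts of each gene were compared with the transcripts of every other gene. Between 87.3% and 99.6% of the stretches of a member were found in no other gene, with a median of 95.7%. The length of the authors' reads was not established here, and the rest of the genome was not searched. These values are therefore not the share of reads that could be counted.

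Irgm1 (99.6%) and Iigp1 (98.3%) were the most distinct members. Gbp7 was the least distinct, with 87.3% found in it alone and 10.5% shared with Gm43802, a gene model that covers 11.3% of the exon bases of Gbp7 on the same strand. Igtp had 88.2% of its own and shared the remaining 11.8% with Irgm2, whose exons overlap those of Igtp over 8.01% of the exon bases of Igtp. The levels of Igtp and Irgm2, and that of Gbp7, are the least certain of the 8 on this account. Gbp10 had only 15.9% of its own and shared 73.3% with Gbp6, the member that is not listed, and 72.1% with the gene model Gm43302, so most stretches of Gbp10 cannot be told from other genes. The same share was not computed for Gbp6. Ifi47 shares 4.49% of its exon bases with Olfr56 on the same strand.

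**Figure D4:**
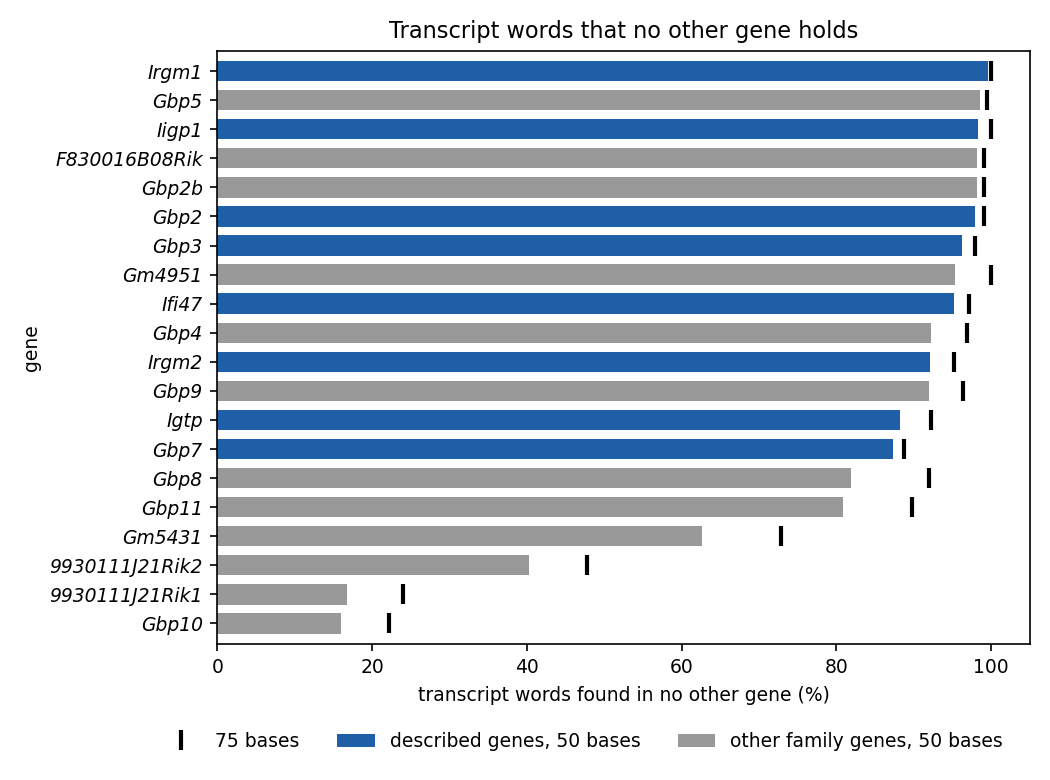
Percent of 50-base transcript stretches found in no other gene (bars, x axis) for the 8 members (blue) and 12 other listed family genes (grey), with the value for 75 bases as a black tick. The members lie between 87.3% and 99.6%, while Gbp10, 9930111J21Rik1 and 9930111J21Rik2 lie far lower.

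Coding sequences were aligned to find the closest relative of each member among the listed family genes looked up. Iigp1 was closest to Gm4951 of the same cluster, with identical bases over 88.0% of the shorter coding sequence. Gbp2 was closest to Gbp2b (83.2%), Gbp3 and Gbp7 were closest to each other (80.1%), and so were Irgm2 and Igtp (73.6%). Pairs of a Gbp and an Irg gene reached 60.4% to 68.1% with the same settings, and the nearest relatives of Irgm1 (69.9%) and Ifi47 (67.9%) were at or close to that range. The first 4 of these pairs each lay within 1 cluster, and all but Iigp1 and Gm4951 were direct neighbours.

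Of 18 genes for interferon receptors and signaling, 16 were listed. Ifng, which encodes interferon gamma, and Socs1, an inhibitor of this signaling, were not listed. Whether this signaling set the levels of the members in these livers was not tested. The receptor chains for interferon gamma, Ifngr1 and Ifngr2, had 97.8 and 71.0 mean normalized counts per kilobase, and those for interferons alpha and beta, Ifnar1 and Ifnar2, had 97.1 and 135. Jak1, a kinase that serves both receptors, was highest in the list at 304 per kilobase, while Jak2 had 54.7 and Tyk2 had 47.4.

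Among the transcription factors, Stat2 had 156 per kilobase and Irf2 had 127. Irf1 had 78.7 and Irf9 had 78.4. Irf8, a factor of macrophages and dendritic cells, was the lowest of the list at 19.2. The phosphatases Ptpn11 and Ptpn2, which act on this signaling, had 174 and 63.5, and the inhibitor Socs3 had 39.1. The list median was 78.5 per kilobase, which is close to the levels of Irgm1 and Irgm2 and above those of Ifi47 and the 3 Gbp genes. Iigp1 lay above all 16 genes of the list, and Igtp, at 117, above all but Jak1, Ptpn11, Stat2, Ifnar2 and Irf2. Here and in the lists below, levels per kilobase were taken with merged exons only. The places of members among list genes were not checked with other lengths.

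Genes of the autophagy machinery that loads Gbp and Irg proteins onto membranes, together with the vacuole's ubiquitin tags and a downstream caspase, were all listed, 12 of 12. Gabarapl1, a ubiquitin-like protein that is attached to membranes, was highest at 1706 mean normalized counts per kilobase, followed by Sqstm1, an adaptor that binds ubiquitin, at 1165. Of the enzymes that attach such proteins, Atg5 had 207, Atg3 had 179, Atg16l1 had 66.5 and Atg7 had 65.8 per kilobase. Casp4, which encodes the mouse caspase that senses bacterial lipopolysaccharide downstream of Gbp proteins, was lowest at 6.99 per kilobase. The median of the list was 157 per kilobase, above every member but Iigp1.

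The tissue was checked against markers. All 8 hepatocyte markers were listed, from 2092 (Asgr1) to 519843 (Alb) mean normalized counts per kilobase, so that even the lowest of them lay above Iigp1. All 9 markers of Kupffer cells, the resident macrophages of the liver, were listed too, from 55.4 (Timd4) to 791 (Clec4f). All 5 sinusoidal endothelial and all 4 stellate cell markers were also present. Of the 4 T and NK cell markers, only Cd3e was listed, at 4.56 per kilobase (mean normalized count 18.6), and neither B cell marker was. The count of Cd3e was near the lowest listed, 15.6, so a marker that is not listed may still be present at a low level. Of 3 cholangiocyte markers only Sox9 was listed, at 9.94 per kilobase (mean normalized count 41.1). Both neutrophil markers were listed, at a summed mean normalized count of 41.7. Per kilobase, S100a8 had 33.1 and S100a9 had 35.9, close to the members Gbp2 (33.6) and Ifi47 (36.1). Gbp and Irg genes can be made by any of these cells, and the cells that gave the levels above were not tested here.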

How the data were processed

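Total RNA of mouse liver was sequenced after ribosomal RNA depletion with a directional library kit. According to the study's methods and the submitters' processing notes, the authors aligned reads with STAR 2.5.3a, counted them on Ensembl genes and normalized the counts with DESeq2. The genome build was not given in the sources used here. The authors' deposited liver table gives 1 mean normalized count per gene, a signal averaged over both groups, for 11779 genes. Its other columns hold the authors' comparison (fold change, standard error, Wald statistic, p-values) and were not used. Depth per mouse is unknown, so no precision could be given.

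The members and gene lists were chosen with earlier results of these data known. Members, other family genes and the genes of the pathway and marker lists were named by fixed lists, and the closest relatives by their sequence identity. The value of 1 gene of the signaling list is not reported here. Ensembl identifiers were matched to GENCODE M21 (GRCm38) for exon lengths, in 11754 of 11779 genes, and levels were divided by kilobases of merged exon. Promoters came from RefSeq. Coding sequences were aligned globally in biopython 1.88 with free end gaps (match 5, mismatch -4, gap opening -10, extension -0.5). Alignment of coding sequences was chosen after seeing the data. The ISRE search and the search for shared stretches were tested on made-up sequences with planted matches. The GAS search was tested only for finding none in a sequence without the core. Python 3.11.15, numpy 2.4.6, pandas 2.3.3, scipy 1.17.1 and matplotlib 3.10.9 were used. Alternatives changed the gene length, the background, the motif settings and the stretch length.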

Additional observations from a re-analysis of the deposited data

How the results depend on the processing

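The deposited liver values are 1 mean per gene, and leaving out a mouse was not possible. No paired analysis was possible because no value of a single mouse was used and no test was run. The planned comparison of protein sequences was not run.

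The number of members above the median level was 4 with all listed genes and 4 per kilobase, but 2 (Iigp1 and Irgm1) against genes that reached 50 mean normalized counts. The ISRE core was found in 6 of 7 members in the whole window and in 6 before the start only, and in 7 with 1 mismatch. The GAS core was found in 3 in the whole window and in 3 before the start, but in 6 with 1 mismatch, which 74.2% of all genes in the promoter table also reached. The ratio of Iigp1 to the next member per kilobase was 5.67 with merged exons, 7.86 with coding length and 9.75 with the longest transcript. Against the merged exon order, 3 of 8 members changed place with coding length and 4 of 8 with the longest transcript. With stretches of 75 bases, 88.7% to 100% of a member's stretches were found in no other gene. Counting identical coding bases over the aligned bases, an alternative added after seeing the data, gave medians of 77.3% for pairs of Gbp members and 75.9% for pairs of Irg members, against 66.9% and 61.4% over the shorter sequence. Pairs of a Gbp and an Irg member had medians of 79.7% over the aligned bases and 64.8% over the shorter sequence, as high as or higher than pairs within the Irg group, so these medians do not show likeness within a family.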
